A study of Homo sapiens with 4 samples.

Results

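The RAB GTPases are the largest branch of the Ras superfamily of small GTPases. The array used here carried 60 RAB genes, 1 of them a pseudogene, among its 34809 gene names. They were chosen by name: every probe other than a control whose gene name is RAB followed by a number and, where present, a subtype letter or digit, with the probe of the highest mean log2 signal over the 4 arrays standing for the gene. The signals came from Hep3B, a human hepatoma cell line, transfected with plasmids that express a short hairpin RNA and selected with puromycin. One array held RNA of cells given the mock hairpin, shR-MOCK, and 3 arrays held RNA of cells given hairpins against the UNC50 transcript, shR-467, shR-554 and shR-749, each named after the base of the transcript it targets. UNC50 is a membrane protein of the Golgi apparatus, and the study asked through these arrays which genes respond to its loss in hepatocellular carcinoma cells. Each hairpin was measured on 1 array, all 4 arrays share the selection and the parent line, and the sources used here do not say whether a hairpin stands for 1 culture or several, nor whether cells were cloned.

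A RAB protein is a switch that marks a membrane. When bound to GTP it sits on one kind of vesicle or organelle and recruits the effectors (tethers, motors and coat adaptors) that move that membrane and fuse it with its target. Guanine nucleotide exchange factors (GEFs) turn it on, GTPase-activating proteins (GAPs) turn it off, and GDP dissociation inhibitors carry the prenylated, inactive protein through the cytosol. In hepatocytes the pathway serves the export of plasma proteins from the ER through the Golgi apparatus, the uptake and recycling of receptors, and the sorting of membrane to the bile canaliculus.

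The 60 genes were read by compartment. The ER-Golgi list had 16 members on the array, the endosome list 23 and the secretion list 12. Another 8 have roles elsewhere (autophagy, cilia, ubiquitin ligases), and RAB9P1, whose RefSeq symbol is RAB9BP1, is a pseudogene. All 60 names matched a gene of the RefSeq table of GRCh38.p14, 3 of them under another current symbol. The 2 other renamed genes are RAB7L1, now RAB29, and RAB39, now RAB39A.

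On most of these genes the knockdown arrays stood close to the mock array. RAB21, a GTPase of early endosomes that binds integrins, was 2.49-fold higher on average in UNC50 knockdown cells, the largest mean difference upward among the 51 RAB genes tested. RAB26, a GTPase of secretory granules, was higher by 0.68 on the log2 scale. Both passed 1.5-fold with every hairpin. RAB19, a Golgi-associated member, differed by a mean of −1.01 on the log2 scale on dim spots, 1 of them not well above background. It passed with every hairpin, a call lost under quantile normalization and in the authors' own log2 table, while RAB20, found on phagosomes and endosomes, passed on average through 1 dim array. By the mean of the 3 hairpins, 46 of the 51 RAB genes differed from the mock array by less than 0.5 on the log2 scale. Of all 25134 genes tested, 21799 did so.

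The readings of RAB21, RAB26 and RAB37 rest on the following stretches of their probes, shown because each probe was printed in a single spot and these letters define what was measured. Each line holds bases 16 to 45 of a 60-base probe, 5′ to 3′, as the array files give it. On hg19 the RAB21 probe lies at chr12:72180219-72180278, the RAB26 probe at chr16:2204081-2204140, the brighter RAB37 probe at chr17:72743222-72743281 and the second RAB37 probe at chr17:72742734-72742793. No strand, exon or UTR is named for them, since no annotation of that build was used here. None of these 4 probes shared a run of 20 bases with a probe of another gene name.
RAB21: ctatttttgcagggtttgcacaggcccgta
RAB26: caagcctttgttttcagtcctagtgaataa
RAB37, brighter probe: tctgaggctactgcatttgctttcaaggca
RAB37, second probe: ttaagagccagataaggagaaatccctttc

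Signals are the processed brightness of a spot after subtraction of background by the scanner software, in arbitrary units, and are given here in the order shR-MOCK, shR-467, shR-554, shR-749. Differences are of the log2 signal after the log2 of each array's 75th percentile (1120, 978, 1390 and 1130 units in that order) was subtracted, so that raw signals of the brighter shR-554 array overstate its level. No probe's level is set against another probe's. The share of spots well above background was 67.6% to 73.6% by array, no spot was saturated, and all 4 arrays lay on 1 slide with 1 scan. All 8 hepatoma markers were well above background on every array, with summed signals between 422805 and 642796 units. The 3 blood markers summed to 1877 to 2886 units and the 3 endothelial markers to 252 to 343 units, all well above background on every array, while of the 3 fibroblast markers none was well above background on all 4 arrays and COL1A1 was so on none. In bulk RNA, fewer cells that express a gene and less of its RNA per cell cannot be told apart.

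UNC50 itself gave signals of 5010, 1050, 853 and 947 units. After scaling, 24.0%, 13.7% and 18.7% of the mock level remained in shR-467, shR-554 and shR-749 cells, a mean log2 difference of −2.45 ± 0.40 (SD, n = 3 hairpins). The labelled target was therefore low on all 3 knockdown arrays, and it had the smallest limma p of all 25134 genes tested (1.34e-04, adjusted p = 0.615).

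The design has few arrays. With 3 arrays against 1, an exact permutation test, two-sided, cannot go below p = 0.25, which RAB21, RAB26 and RAB19 each reached. The fit across all genes (limma, 2 residual degrees of freedom) assumes that the lone mock array varies like the hairpins, which are different reagents counted as 3 replicates, and its p-values measure only the spread between these arrays. It called 0 of the 25134 genes (0%) and 0 of the 51 RAB genes at an adjusted p under 0.05. At an unadjusted p under 0.05 it listed 381 genes, 2 of them RAB genes.

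The count of RAB genes past 1.5-fold followed from a filter on dim probes. A gene was tested when its probe stood well above background in the mock sample or in each of the 3 knockdown samples. This kept 51 of the 60 RAB genes, 13 of the ER-Golgi list, 20 of the endosome list, 11 of the secretion list, 6 of the other members and the pseudogene. Of the 51, 49 were well above background on all 4 arrays. By the mean of the 3 hairpins, 2 of 51 were at least 1.5-fold higher (RAB21 and RAB26, against 2.29% of all genes tested) and 2 were at least 1.5-fold lower (RAB19 and RAB20, against 7.65%). With every hairpin past 1.5-fold there were 2 higher (the same 2 genes, against 0.537%) and 1 lower (RAB19, against 1.21%). As a share of the 51 RAB genes, 2 members are 3.92% and 1 member is 1.96%. RAB19 and RAB20 were each not well above background on 1 knockdown array, so both were kept through the mock array, where each was highest. The filter admits a gene on the mock array alone, but otherwise needs all 3 knockdown arrays. It thus favours genes that are high on the mock array, and these 2 lower calls are no support for a fall. With all 4 arrays required, 2.34% of all genes were higher on average and 2.92% lower.

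Taken hairpin by hairpin, shR-467 put 2 RAB genes at least 1.5-fold above the mock array and 1 below it, where 7.28% and 6.76% of all genes tested passed. With shR-554 there were 3 above and 4 below, against 4.41% and 15.9%. With shR-749 there were 2 above and 2 below, against 5.41% and 10.3%. RAB21 and RAB26 were above with each hairpin and RAB19 below with each. The others passed with 1 hairpin: RAB37 above with shR-554, RAB20, RAB30 and RAB40B below with shR-554, and RAB4B below with shR-749.

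**Figure D1:**
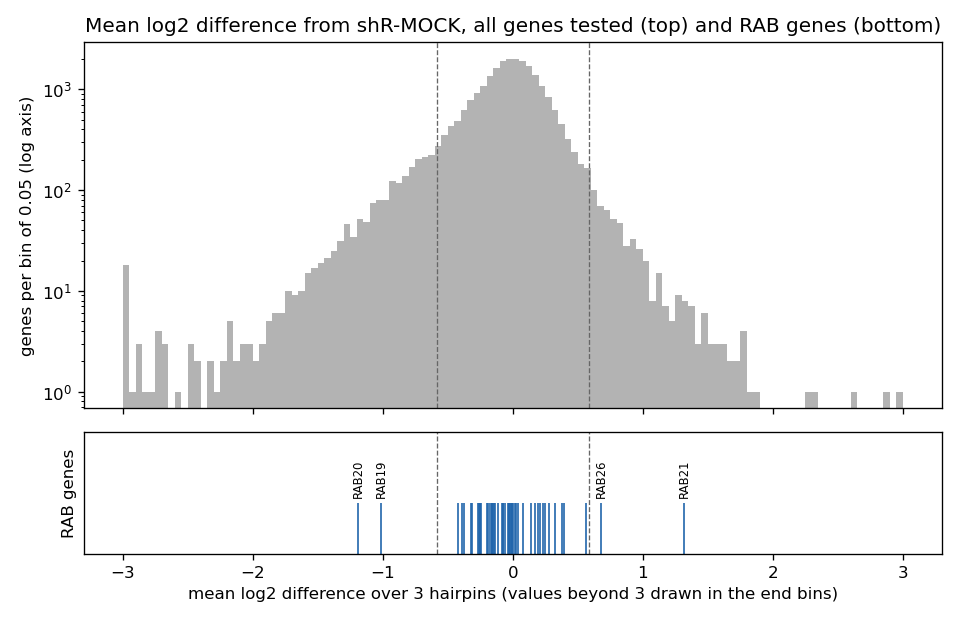
Histogram of the mean log2 difference of 25134 genes between the 3 knockdown arrays and the mock array (top, genes per bin on a log axis) and the same value for each of the 51 RAB genes tested (bottom, 1 line per gene), with dashed lines at 1.5-fold. Most RAB genes lie inside the dashed lines, with RAB20 and RAB19 beyond them at −1.19 and −1.01 and RAB26 and RAB21 at 0.68 and 1.32.

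The median of the mean log2 difference over the 51 RAB genes was −0.06, beside −0.03 over all genes tested. By hairpin the RAB median was −0.03 (shR-467), −0.11 (shR-554) and −0.09 (shR-749), an SD of 0.04 between hairpins. Of the 51 genes, 33 had a mean below 0 and 18 above, beside 13696 below and 11438 above among the 25134 genes tested. For 17 genes the mock array was above all 3 knockdown arrays, where 20.5% of all genes tested had that order, and for 9 it was below all 3, against 17.5%. The median SD over the 3 hairpins was 0.18 on RAB genes, beside 0.25 over all genes tested. The sets differ in signal: 49 of the 51 RAB genes were well above background on all 4 arrays, against 21488 of the 25134 genes. No comparison at like signal was made.

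Among GTPases of the ER and Golgi apparatus the median difference was −0.06 and the range −1.01 to 0.38. RAB1A and RAB1B, which tether ER-derived vesicles at the Golgi apparatus, did not pass 1.5-fold. RAB1A gave 19900, 21200, 28700 and 21800 units, a difference of 0.21 ± 0.08 (SD over hairpins, n = 3 here and for each value below). RAB1B gave 7777, 6620, 8815 and 6133 units and a difference of −0.17 ± 0.16. The RAB1B probe is annotated on chromosome 2 while the gene lies on chromosome 11, and a second RAB1B probe read 0.05. RAB2A, which acts in membrane return from the intermediate compartment to the ER, gave −0.26 ± 0.21, and RAB18, a GTPase of the ER and lipid droplets, gave −0.26 ± 0.27.

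RAB6A, which carries retrograde traffic through the Golgi apparatus to the ER, had the highest mean of the ER-Golgi genes tested. Its signals were 1090, 1230, 1638 and 1539 units, with differences of 0.37, 0.28 and 0.49 and a mean of 0.38 ± 0.10. All 3 knockdown arrays stood above the mock array, none by 1.5-fold, and the limma p was 0.126 (adjusted p = 1.00). RGP1 and RIC1 (named KIAA1432 on the array), which together form the exchange factor of RAB6A, differed by −0.01 ± 0.02 and 0.05 ± 0.17. RAB6B, the paralog best known from neurons, stayed under the mark for a signal well above background on all 4 arrays.

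RAB19 gave 59.7, 27.6, 43.4 and 23.8 units, the last of which was not well above background, so that 2 of the 3 knockdown arrays measured it. Its differences of −0.92, −0.77 and −1.34 had a mean of −1.01 ± 0.29. The mock array was the highest of the 4, and the limma p was 0.0983 (adjusted p = 1.00). With normexp background correction the mean was −0.38. The lowest signal that counted as well above background was 21.2 to 28.3 units by array, and the second RAB19 probe stayed under that mark on all 4 arrays. RAB30, a Golgi GTPase at similarly dim levels, split the hairpins: 57.9, 66.1, 42.6 and 69.6 units gave differences of 0.39, −0.75 and 0.25.

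The endosome list had a median of −0.08 and a range of −1.19 (RAB20) to 1.32 (RAB21). RAB20 was kept through the mock array, and its mean came from the shR-554 spot, which was not well above background. Among endosomal genes well above background on all 4 arrays the lowest was RAB4B, at −0.42. RAB21 gave 1500 units on the mock array and 3300, 4880 and 3550 units on the knockdown arrays. All 3 knockdown arrays were more than 1.5-fold above the mock array, with differences of 1.33, 1.39 and 1.23, and the mean was 1.32 ± 0.08. In limma its p was 2.69e-04 (SE 0.20), rank 10 of 25134, and the adjusted p was 0.615. The value ran from 1.21, with normexp background correction, to 1.36, without shR-749, over 12 alternatives in normalization, filter, probe choice and arrays. The genes next to RAB21 on chromosome 12, TMEM19 and TBC1D15 (itself a GAP for RAB7A), differed by 0.10 ± 0.29 and −0.18 ± 0.21.

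RAB5 isoforms, which drive fusion of early endosomes, stood near the mock array: RAB5A differed by −0.03 ± 0.18, RAB5B by −0.01 ± 0.29 and RAB5C by −0.16 ± 0.15. RAB5C is 1 of 2 RAB genes printed in 10 spots, and its spots on an array had an SD between 0.033 and 0.087 on the log2 scale. The late endosomal RAB7A gave 8573, 7125, 10000 and 10200 units and a difference of 0.03 ± 0.18. Of the recycling GTPases, RAB11A differed by −0.07 ± 0.18, RAB11B by −0.16 ± 0.30, RAB4A by 0.25 ± 0.20 and RAB14 by 0.20 ± 0.21. None of these 8 genes passed 1.5-fold with any hairpin.

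RAB4B and RAB35, both of which return receptors quickly to the plasma membrane, were the lowest endosomal members well above background on all arrays. RAB4B gave 310, 259, 284 and 184 units, with differences of −0.06, −0.44 and −0.77 and a mean of −0.42 ± 0.35. RAB35 gave 5780, 4180, 5700 and 4080 units, with differences of −0.27, −0.33 and −0.52 and a mean of −0.37 ± 0.13. The mock array was above all 3 knockdown arrays in each, but the RAB4B values spread from near 0 to past 1.5-fold. RAB20 gave 43.1, 35, 6.83 and 31 units. Its mean of −1.19 ± 1.56 came from the shR-554 array, where the spot was not well above background and the difference was −2.97. With shR-467 and shR-749 the differences were −0.10 and −0.49, and without shR-554 the mean was −0.30.

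**Figure D2:**
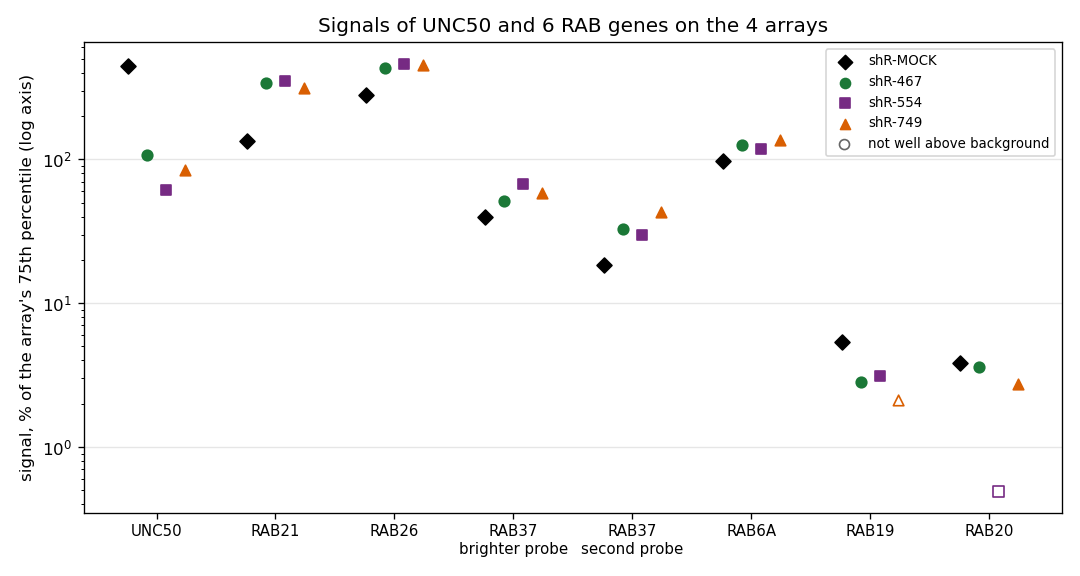
Signal of UNC50 and 6 RAB genes on the mock array and the 3 knockdown arrays, 1 point per array, as a percentage of the array's 75th percentile on a log axis, with open points where the spot was not well above background. Heights compare arrays within a probe, not one probe with another. The 3 knockdown points of RAB21 lie close together above the mock point, both RAB37 probes have the mock point lowest, and the RAB20 point of shR-554 stands alone at the bottom.

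Secretory GTPases had a median difference of 0.00 and a range of −0.32 to 0.68. RAB26 gave 3130, 4200, 6420 and 5130 units, with differences of 0.62, 0.72 and 0.70 and a mean of 0.68 ± 0.05. Every knockdown array was above the mock array by a similar amount, each a little past the 1.5-fold line of 0.58. In limma its p was 0.00754 (SE 0.18), rank 87 of 25134, with an adjusted p of 1.00. With median scaling in place of the 75th percentile, RAB26 no longer passed 1.5-fold with every hairpin. With normexp and quantile normalization, where RAB26 was at 0.64 and RAB21 at 1.21, only 1 RAB gene was 1.5-fold higher with every hairpin. The flanking genes on chromosome 16, PKD1 and TRAF7, differed by −0.10 ± 0.41 and 0.29 ± 0.09.

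RAB37, a GTPase of regulated exocytosis, was measured by 2 probes, and both stood above the mock array with every hairpin. The brighter probe gave 442, 498, 933 and 660 units, with differences of 0.37, 0.77 and 0.57 and a mean of 0.57 ± 0.20, which falls just short of 1.5-fold. The second probe gave 207, 322, 413 and 484 units, with differences of 0.83, 0.68 and 1.21 and a mean of 0.91 ± 0.27. On both probes the mock array was the lowest of the 4, and the hairpin with the largest difference was shR-554 on one and shR-749 on the other. When all probes of a gene were averaged, RAB37 passed 1.5-fold with every hairpin. RAB37 overlaps CD300LF in the RefSeq annotation, and the CD300LF probe did not pass the filter on dim probes.

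RAB10, which acts in basolateral and GLUT4 traffic, gave 6160, 6060, 9170 and 9040 units and a difference of 0.32 ± 0.19. RAB3B, of the RAB3 group that primes regulated exocytosis, gave −0.32 ± 0.10, beside −0.14 ± 0.09 for RAB3A and 0.02 ± 0.30 for RAB3D. RAB8A, which directs vesicles to the plasma membrane and the cilium, gave 5699, 4340, 6440 and 4854 units and a difference of −0.19 ± 0.05. RAB3A, RAB3B and RAB8A were each below the mock array with all 3 hairpins, by less than 1.5-fold. RAB13, of tight junctions, differed by −0.16 ± 0.24, and RAB27A and RAB27B, which dock secretory organelles and exosome-bearing bodies, by 0.14 ± 0.31 and −0.00 ± 0.21. The RAB10 and RAB13 probes are annotated on chromosomes 14 and 12, other than those of the genes (2 and 1).

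**Figure D3:**
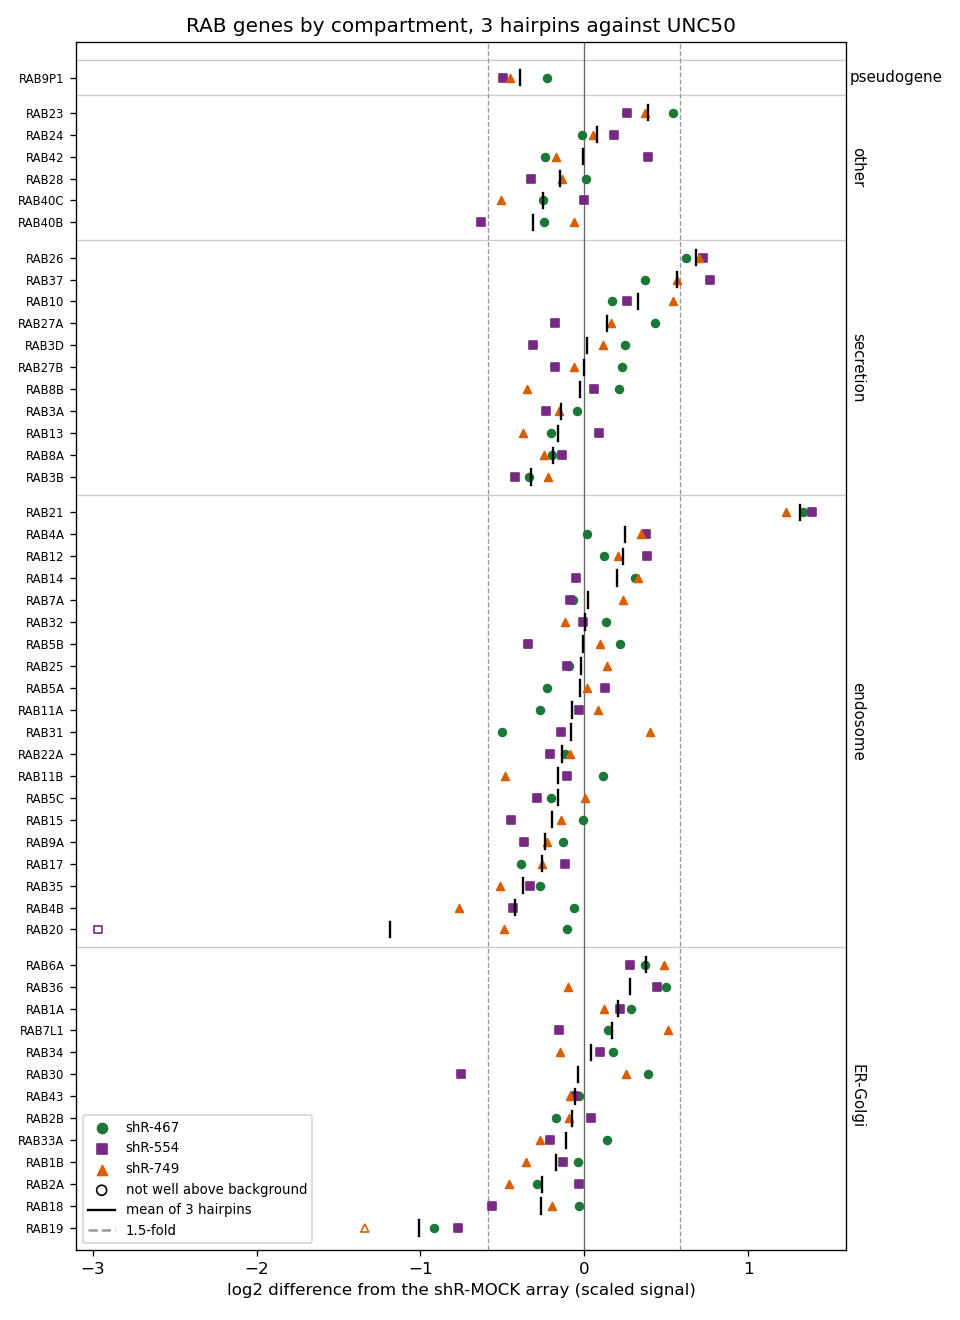
Log2 difference from the shR-MOCK array for each of the 51 RAB genes tested, grouped by compartment, with 1 point per hairpin, a black bar at the mean of the 3 hairpins, open points where the spot was not well above background, and dashed lines at 1.5-fold. RAB21 stands apart on the right with its 3 points together, RAB20 has 1 open point near −2.97, and most other genes have points on or inside the dashed lines.

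Outside these compartments, RAB23, a negative regulator of Hedgehog signalling, gave 565, 718, 840 and 738 units and a difference of 0.39 ± 0.14. RAB40B, a subunit of a ubiquitin ligase, gave 1180, 868, 945 and 1140 units and a difference of −0.31 ± 0.29. The pseudogene RAB9P1 gave 575, 428, 507 and 423 units and a difference of −0.39 ± 0.14. None of these 3 passed 1.5-fold on average, and in all 3 the knockdown arrays lay on one side of the mock array. The other 4 genes tested in this list, RAB24 of autophagy, RAB28 of cilia, RAB40C of a ubiquitin ligase and RAB42, lay between −0.25 and 0.08.

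Of the 60 genes, 9 were not tested. RAB3C, RAB6B, RAB7B, RAB9B, RAB33B, RAB38, RAB39 and RAB39B stayed under the mark on every array, which is a limit of signal and not a level of 0. RAB41 gave 16.3, 8.45, 16 and 99.6 units and was well above background with shR-749 only. RAB41 therefore stood out on 1 knockdown array of 3.

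Because 38 of the 60 genes were measured by 1 spot, agreement between probes is the main check within these arrays. In all, 73 probes carried a RAB name and 12 genes had more than 1. RAB21 and RAB26 had 1 probe each, so this check does not cover them. Of 13 pairs of a gene's brightest probe with another, 10 pairs from 9 genes were well above background on all 4 arrays. One of them is RAB43, a Golgi GTPase, whose second probe is annotated on chromosome 16 (the gene lies on 3) and shares 20 bases with a probe of LOC100131426. Over the 10 pairs the mean log2 differences of the probes lay 0.16 apart in the median and at most 0.43 apart, the latter for RAB2B, an ER-Golgi GTPase (−0.08 and −0.50). No such pair differed by over 0.58. The 3 pairs that did were of RAB19, RAB3C and RAB9B, whose second probes stayed under the mark on every array. The 20 genes with 2 spots had a median SD of 0.044 between the spots on the log2 scale.

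**Figure D4:**
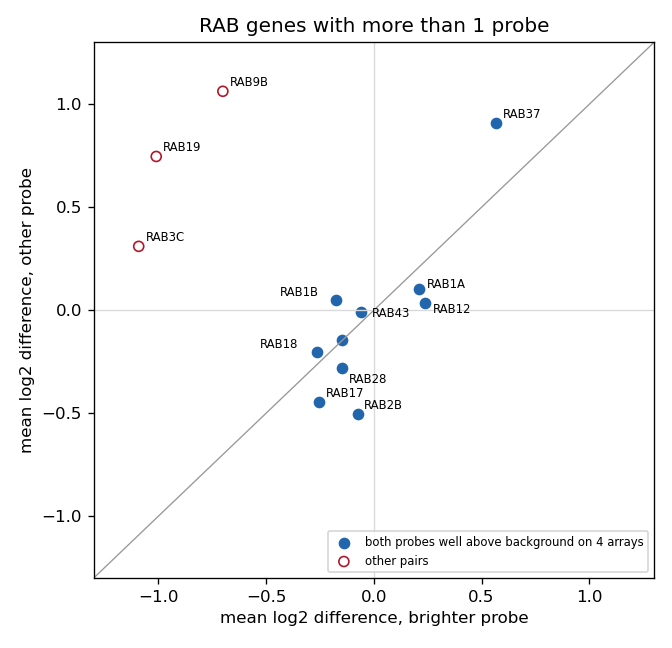
Mean log2 difference from shR-MOCK on the other probe of a RAB gene against that on its brightest probe, 1 point per pair, with the line of equality. The 10 filled points, well above background on all 4 arrays, lie within 0.43 of the line, and the 3 open points (RAB19, RAB3C and RAB9B) lie far above it.

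The proteins that switch and carry RABs were read from a list of 165 symbols, 154 of them on the array and 146 tested. None passed 1.5-fold with every hairpin, where 0.537% of all genes tested passed upward and 1.21% downward, and 2 were higher and 1 lower on average, where 2.29% and 7.65% passed. Among 46 GEFs no gene passed on average, and the median difference was 0.01. Among 37 GAPs EVI5, a TBC-domain protein, passed upward: 339, 443, 713 and 567 units gave differences of 0.58, 0.76 and 0.73 and a mean of 0.69 ± 0.10, with the shR-467 array just under the line. EVI5 is named here after its values were seen.

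Among 55 effectors RIMS3 and RIMS1, which act at sites of regulated exocytosis, passed on average in opposite directions. RIMS3 gave 40.6, 24.0, 64.1 and 490 units (1.12 ± 2.18) and RIMS1 24.4, 32.6, 6.39 and 8.19 units (−1.07 ± 1.5), both named after their values were seen. In each, the spread over hairpins was larger than the mean, and not all arrays were well above background.

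The 8 genes of prenylation and membrane extraction lay between −0.29 and 0.47. GDI2, a GDP dissociation inhibitor, differed by −0.17 ± 0.24. The geranylgeranyl transferase subunits RABGGTA and RABGGTB differed by −0.02 ± 0.35 and −0.09 ± 0.27, and CHML, an escort protein, by −0.11 ± 0.20. CHM, the other escort protein, was level with the mock array with shR-467 and shR-749 and at −0.87 with shR-554. Its mean of −0.29 was −0.07 when all CHM probes were averaged. RABIF, a chaperone of nucleotide-free RABs, was also lowest with shR-554, at −0.71, and stood at 0.06 and −0.13 with the others. On the brightest probe of both genes shR-554 alone passed 1.5-fold.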

How the data were processed

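Total RNA of Hep3B cells was labelled with Cy3 and hybridised to 4 Agilent 1-colour arrays. The authors deposited 1 output of Agilent Feature Extraction 10.7.1.1 per array, with each spot's intensity raw, as local background and as a background-subtracted processed signal, and a table of log2 values of the same arrays. Of that table the scale is log2 per the labels, the normalization is not given in the sources used here, and the direction does not arise; each array's median in it was 6.37. Other marks in the files (well above background, saturated, outlier) served as filters. Probe positions are those of the files, on hg19, and names were matched to RefSeq.

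Outlier spots and controls were left out, the log2 processed signal was set to each array's 75th percentile, and spots of a probe were averaged. A probe counted as well above background when at least 0.5 of its spots were. Differences were tested with limma 3.58.1 (lmFit, eBayes with a trend, Benjamini-Hochberg) in R 4.3.3 on 25134 genes. Genes that differed by 1.5-fold on average, or with every hairpin, were counted. The number of arrays limits the precision.

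Genes were named by rule: UNC50, RAB genes past 1.5-fold, the 5 largest mean differences in each direction among those well above background on all arrays, a list by role, genes not well above background on any array, and regulators past 1.5-fold with every hairpin or of general function. RAB30 and others outside the rule are named where a count needs them. The members and lists were chosen with earlier results of these data known. Groups follow the source labels, hairpin by hairpin. Alternatives covered normalization, background correction, filters, probe choice, fold threshold, test and single arrays.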

Additional observations from a re-analysis of the deposited data

Results flagged for a closer look

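The second RAB37 probe, which the comparisons left aside because the brighter probe stood for the gene, except where all probes were averaged, was above the mock array by a mean of 0.91 on the log2 scale over the 3 hairpins (0.83, 0.68 and 1.21). It was the only second probe of a RAB gene well above background on all 4 arrays that passed 1.5-fold.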

How the results depend on the processing

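Of 543 values recomputed under other settings, 533 stayed near the value in the report (single genes within 1 SD over hairpins, counts within 1.5 times), and 10 moved further. This tolerance is wide for genes on which the hairpins differ, so the tally is no measure of stability. With normexp, RAB20 at −0.24 counted as near its mean of −1.19, while RAB21 at 1.21 counted as moved from 1.32. Of the 490 recomputed values of single genes, 18, from 12 genes, changed sign, none of a gene past 1.5-fold, and the largest of these genes' means was −0.29 (CHM). The count of 4 RAB genes past 1.5-fold on average (2 higher, 2 lower) was 2, both higher, with normexp and quantile normalization, 2, both higher, when a probe had to be well above background on all 4, and 10 (4 higher, 6 lower) with no filter on dim probes. Over all genes, 1.01% were higher and 1.13% lower with normexp. These shares were 2.34% and 2.92% with all 4 arrays required, and 5.74% and 9.68% with no filter. The count of 3 with every hairpin (2 higher, 1 lower) was 1 with normexp, 1 at 2-fold and 2 with median scaling (1 higher, 1 lower). It was 2, both higher, with quantile normalization, with the authors' values and when a probe had to be well above background on all 4, so that no RAB gene was lower with every hairpin there. Leaving out 1 hairpin at a time gave 3 to 6 genes on average, 3 with every remaining hairpin, 0 limma calls among RAB genes and a RAB median between −0.121 (without shR-467) and −0.0635. Over all genes, 3.15% were at least 1.5-fold higher on average and 11.6% lower without shR-467. These shares were 3.44% and 5.92% without shR-554, and 2.71% and 8.59% without shR-749. A t-test of the 3 knockdown arrays against the mock array took its variance from the 3 hairpins alone. It listed 2 RAB genes at an unadjusted p under 0.05 and 0 after Benjamini-Hochberg adjustment (646 and 0 over all genes).

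RAB19 differed by −0.38 with normexp and −1.13 at the lowest, RAB20 by −1.73 to −0.24, RAB26 by 0.64 to 0.71 and RAB37 by 0.46 to 0.74. Adjusted p-values of RAB21 ran from 0.208 to 1.00, and limma called 4 genes with normexp, none of them a RAB gene. Over all genes, 575 were higher and 1923 lower on average. These counts were 253 and 283 with normexp, and 616 and 925 with dim signals raised. The filter that demands all 4 arrays gave 503 and 627. By its rule, the main filter admits dim genes more readily when the mock array is the high one. How much of the change in these counts follows from that rule was not tested. A fit with slide or scan as a block could not be run, since all arrays share both. No paired analysis was possible because the mock group is 1 array and the labels number no replicates.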
